A study of Mus musculus with 2 samples.

Results

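The cells described here are 340 cells of one mouse small cell lung cancer (SCLC) tumor, TKO1, that carried at least 2 transcripts, counted as unique molecular identifiers (UMIs), summed over *Cbln4*, *Pipox*, *Dcpp1* and *Galnt9*. They were chosen from barcodes with more than 500 detected genes, fewer than 10 *Scgb1a1* UMIs and fewer than 5 UMIs summed over *Lyz2*, *C1qa*, *C1qb*, *C1qc*, *Tyrobp* and *Fcer1g*, limits that leave out most cells of the club-like and macrophage-like clusters. Of 4514 barcodes in the library, 3193 passed the gene minimum and 3005 lay within all limits, so that the selected cells made up 11.3% of the latter (exact Clopper-Pearson 95% interval 10.2 to 12.5). They were compared with 2048 cells within the same limits that had 0 UMIs of the 4 genes, called 0-UMI cells below. The remaining 617 cells had exactly 1 UMI. At the threshold, 207 of the selected cells had 2 UMIs, 65 had 3 and 68 had 4 or more, up to 31 in a single cell.

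The study profiled 1 lung tumor from each of 2 triple-knockout (TKO) mice, TKO1 and TKO2, by droplet-based single-cell RNA-seq, to place mouse tumor cells among SCLC subtypes. By their labels, of which that of TKO1 ends in stray characters and was read as the same, both mice carried Rb-/-; Trp53-/-; Rbl2-/- with a Rosa26 membrane-Tomato or membrane-GFP reporter on a mixed C57BL/6, 129/SVJ and 129/SvOla background, and were 8 to 9 months old. Tumors had been induced with an adenovirus in which the CMV promoter drives Cre recombinase, given into the airways 7 months before harvest, so the deletion is not limited by promoter to one airway cell type, and live cells were sorted before capture. Each mouse gave 1 library, so that mouse, tumor and library cannot be told apart and no test across animals exists. Of the barcode sequences, 22 occurred in both libraries, and 0 of the selected cells had one of these.

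The genes that chose the cells belong to unrelated families. Cerebellin-4, the product of *Cbln4*, is a secreted protein of the C1q family that binds neurexins and DCC and organizes synapses. *Pipox* encodes the peroxisomal enzyme that oxidizes sarcosine and pipecolic acid. *Dcpp1* encodes demilune cell and parotid protein, a secreted protein of salivary glands with the near-identical neighbours *Dcpp2* and *Dcpp3*, and *Galnt9* encodes one of the transferases that begin mucin-type O-glycosylation. SCLC itself is a neuroendocrine tumor, in which secretory granule and neuropeptide genes are typically active.

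The genes deleted in the model were looked at first. *Rb1* had 92.6 CPM (the UMIs of a gene divided by all UMIs of the group, on the usual CPM scale) in the selected cells and 69.5 CPM in the 0-UMI cells, *Trp53* had 37 and 138 UMIs (log2 ratio 0.37, -0.19 to 0.90), and *Rbl2*, which encodes p130, had 5.24 CPM (3 UMIs) and 8.69 CPM (24 UMIs). A UMI of a deleted gene can come from a part of the gene that the deletion leaves in place, so these levels do not check the labels. None of the 3 genes differed between the groups beyond counting error.

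Depth differed between the groups. The selected cells held 572222 UMIs with a median of 1359.5 UMIs and 857.5 genes per cell. The cells with 1 UMI of the 4 genes held 903139 UMIs (median 1241 per cell), and the 0-UMI cells held 2762475 UMIs with medians of 1170 UMIs and 757 genes. Among the cells within the limits, the share of selected cells was 6.94% among the 749 with the fewest UMIs and 17.2% among the 752 with the most. With every cell cut down at random to 1000 UMIs and shallower cells left out, 170 of 2161 cells (7.87%) still passed. Mitochondrial UMIs made up 0.589% and 0.563% of the total in the selected and 0-UMI cells, and ribosomal protein UMIs 9.44% and 11.2%. All intervals given are 95% intervals and cover counting error only. They are exact Poisson intervals for CPM, exact Clopper-Pearson intervals for shares and exact conditional binomial intervals for ratios.

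The selected cells were mainly cells with *Cbln4* or *Dcpp1*. Because the UMIs of the 4 genes chose the cells, the following values describe the choice and are not a finding. *Cbln4* (ENSMUSG00000067578, GRCm38 chromosome 2, 172036233 to 172043466, minus strand) had 454 UMIs, or 793 CPM (722 to 870), and at least 1 UMI in 235 of the 340 cells. It never exceeded 4 UMIs in a cell. *Dcpp1* (ENSMUSG00000096445, chromosome 17, 23880876 to 23882853, plus strand) had 400 UMIs, 699 CPM (632 to 771), in 156 cells, with up to 13 in one cell. *Galnt9* (ENSMUSG00000033316, chromosome 5, 110544355 to 110621380, plus strand) had 100 UMIs, 175 CPM (142 to 213), in 74 cells.

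*Pipox* (ENSMUSG00000017453, chromosome 11, 77880615 to 77894096, minus strand) stood apart from the other 3 genes. It had 43 UMIs, 75.1 CPM, in 9 of the selected cells, and 31 of these UMIs (72.1%) were in a single cell, which had no UMI of the other 3 genes. The next highest *Pipox* cell had 3. Within the limits as a whole *Pipox* had 52 UMIs in 18 cells. The *Pipox* level of the group therefore rests mainly on 1 cell, and 6 of the 9 *Pipox* cells also had *Cbln4*. The cells are accordingly called by the rule that chose them and not as a cell type.

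Most of the selected cells held UMIs of only 1 of the 4 genes. This was so for 215 of 340 cells (63.2%, 57.9 to 68.4). Another 117 cells had UMIs of 2 of the genes, 7 had 3 and 1 had all 4. *Cbln4* alone accounted for 128 cells, *Dcpp1* alone for 74, *Galnt9* alone for 12 and *Pipox* alone for 1. The largest shared class was *Cbln4* with *Dcpp1*, in 65 cells, followed by *Cbln4* with *Galnt9* in 45. Without its *Cbln4* UMIs, 196 cells would not have passed, without *Dcpp1* 122, without *Galnt9* 48 and without *Pipox* 7.

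The promoters of *Cbln4*, *Dcpp1* and its copy *Dcpp3* are shown because these genes carry most of the UMIs. The sequences are from RefSeq (GRCm38.p6) and run 5′ to 3′ on the strand of the gene, from 250 bases before to 50 bases after the start. Capitals mark E-boxes (CANNTG, which reads the same on both strands), the motif that basic helix-loop-helix factors bind. *Cbln4* lies on chr2:172043417-172043716 (minus strand), *Dcpp1* on chr17:23880626-23880925 and *Dcpp3* on chr17:23917208-23917507 (both plus strand).
Cbln4: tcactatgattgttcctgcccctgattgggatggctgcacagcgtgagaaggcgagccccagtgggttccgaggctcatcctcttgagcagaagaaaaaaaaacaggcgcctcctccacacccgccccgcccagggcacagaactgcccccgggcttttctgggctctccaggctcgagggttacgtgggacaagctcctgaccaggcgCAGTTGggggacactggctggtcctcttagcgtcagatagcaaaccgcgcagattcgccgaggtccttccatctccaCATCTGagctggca
Dcpp1: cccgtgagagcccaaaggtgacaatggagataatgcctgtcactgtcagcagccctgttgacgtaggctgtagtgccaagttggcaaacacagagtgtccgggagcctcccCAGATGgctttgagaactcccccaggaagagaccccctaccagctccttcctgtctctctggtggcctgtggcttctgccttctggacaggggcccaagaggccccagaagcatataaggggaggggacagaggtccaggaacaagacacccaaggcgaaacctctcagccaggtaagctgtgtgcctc
Dcpp3: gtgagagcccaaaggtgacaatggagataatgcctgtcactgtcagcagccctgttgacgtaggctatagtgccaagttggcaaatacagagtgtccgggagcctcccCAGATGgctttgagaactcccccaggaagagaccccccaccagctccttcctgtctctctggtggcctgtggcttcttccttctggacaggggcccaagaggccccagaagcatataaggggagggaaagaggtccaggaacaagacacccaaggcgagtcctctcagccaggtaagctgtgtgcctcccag
The *Cbln4* window holds 2 E-boxes and each *Dcpp* window 1, at matching places. Of all 32851 promoters of this length in the table, 72.3% hold at least 1 E-box, so the matches are a description only. The *Dcpp1* and *Dcpp3* windows are alike at 95.1% of 304 aligned positions.

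The *Dcpp* genes cannot be fully separated by their reads. The *Dcpp1* transcript of 617 bases is identical to its nearest *Dcpp3* transcript at 93.4% of aligned positions, and 79 of 211 windows of 90 bases (37.4%) in its last 300 bases occur unchanged in a *Dcpp3* transcript. The annotated *Dcpp2* gene (chromosome 17, 23880880 to 23900788) also overlaps *Dcpp1*. *Dcpp3*, which the choice of cells did not use, had 11 UMIs, 19.2 CPM (9.60 to 34.4), in the selected cells and 7 UMIs, 2.53 CPM (1.02 to 5.22), in the 0-UMI cells. It followed *Dcpp1* over all cells within the limits, with 2.11 CPM (0.911 to 4.16) in cells without *Dcpp1*, 39.3 CPM (19.6 to 70.4) in cells with 1 *Dcpp1* UMI and 66.4 CPM (33.2 to 119) in those with 2 or more. How much of this is *Dcpp1* RNA counted as *Dcpp3* was not tested.

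Each of the 4 genes was next measured in cells grouped by the other 3, so that the gene measured had no part in the grouping. At 1000 UMIs per cell, *Cbln4* was found in 285 of 1878 cells (15.2%, 13.6 to 16.9) with 0 UMIs of the other genes, in 17.9% (13.0 to 23.6) with 1 and in 18 of 65 cells (27.7%, 17.3 to 40.2) with 2 or more. *Galnt9* went from 4.67% (3.71 to 5.79) through 5.80% to 8.97% (4.86 to 14.8), and *Dcpp1* from 7.76% (6.54 to 9.12) through 8.02% to 10.9% (5.77 to 18.3). The intervals of *Cbln4* beside 0 and beside 2 or more UMIs did not overlap, whereas those of *Dcpp1* and of *Galnt9* did. *Pipox* was found in 0.438% of cells with none of the others and in 1 of 166 cells (0.602%) with 2 or more. As a measure of free RNA, the 66 macrophage marker cells at the same depth (median 1457 UMIs before thinning, against 1525 in the selected cells) had *Cbln4* in 0 cells, which allows a share of up to 4.55% by 3 counts of the total and 5.44% by the exact interval, *Galnt9* in 0, and *Dcpp1* in 2 (3.03%, 0.369 to 10.5). Without thinning, the share with *Cbln4* was 19.3% beside 0 and 27.1% beside 2 or more UMIs of the other genes, with intervals that overlapped, whereas *Dcpp1* had 9.18% (8.02 to 10.4) and 15.6% (11.0 to 21.1), which did not. In the deeper cells that allow 2000 UMIs each, *Cbln4* was found in 22.3% (18.3 to 26.8) beside 0 and 26.5% (12.9 to 44.4) beside 2 or more UMIs. *Dcpp1* was found there in 11.4% (8.24 to 15.3) and 11.1% (3.71 to 24.1), so that for neither gene did the intervals separate at this depth.

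**Figure D1:**
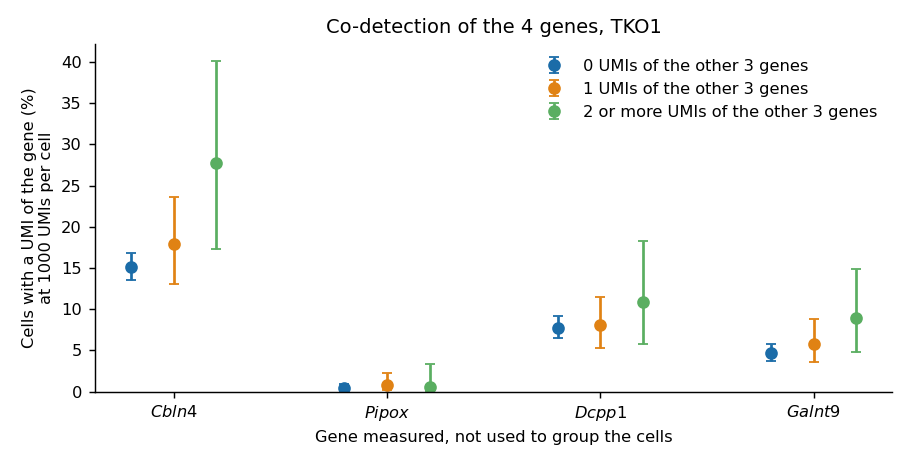
Share of TKO1 cells with a UMI of each gene (y axis, percent, cells thinned to 1000 UMIs), by the number of UMIs of the other 3 genes in the same cell (colors); points are shares and bars exact 95% intervals. *Cbln4* lies at 15.2% beside 0 and 27.7% beside 2 or more UMIs of the other genes, and *Pipox* stays below 1% throughout.

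By pairs at the same depth, *Cbln4* was in 27 of 111 cells with *Galnt9* (24.3%, 16.7 to 33.4) and in 315 of 2050 cells (15.4%, from 13.8%) without it, the upper limit of the latter reaching above the lower limit of the former. *Cbln4* was in 31 of 172 cells with *Dcpp1* (interval 12.6 to 24.6%) and in 15.6% (14.1 to 17.3) without. *Galnt9* was in 5.23% of cells with *Dcpp1* and in 5.13% without. The intervals of each of these pairs overlapped.

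The 4 genes were differently placed in the other cells and in the other tumor. Over all TKO1 cells within the limits, *Cbln4* had 193 CPM (180 to 206), *Dcpp1* 126 CPM (115 to 137), *Galnt9* 212 UMIs (43.5 to 57.2 CPM) and *Pipox* 12.3 CPM. In the 110 TKO1 cells with 10 or more *Scgb1a1* UMIs, *Dcpp1* had 132 CPM (88.0 to 191), within counting error of its level over all cells within the limits, whereas *Cbln4* had 52.0 CPM (26.0 to 93.1). In the 78 macrophage marker cells *Dcpp1* had 25.6 CPM (5.27 to 74.7) and *Cbln4* 2 UMIs (2.06 to 61.6 CPM). *Dcpp1* RNA was therefore measured at similar levels on both sides of the *Scgb1a1* limit, and *Cbln4* RNA was not.

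In TKO2, 47 of 3466 cells within the limits (1.36%, 0.998 to 1.80) passed the same rule, too few for ratios by the minimum of 50 cells set here. *Galnt9* had a similar level there, at 42.9 CPM (38.5 to 47.7, 340 UMIs in 293 cells). *Cbln4* had 5 UMIs (0.631 CPM, 0.205 to 1.47). *Pipox* had 24 UMIs (3.03 CPM) in 24 of the 3466 cells, and in TKO1 it was found in 18 of 3005 cells. Its 52 UMIs in TKO1 include the 31 of the single cell described above. *Dcpp1* had 14 UMIs (1.77 CPM), of which 13 were in 1 cell.

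*Msmo1*, a sterol oxidase of cholesterol synthesis, had been listed with these genes but took no part in choosing the cells. It was level between the groups over all cells, though not within every cluster. It had 21 UMIs, 36.7 CPM (22.7 to 56.1), in the selected cells, 35.4 CPM in the cells with 1 UMI and 100 UMIs, 36.2 CPM (29.5 to 44.0), in the 0-UMI cells. The log2 ratio of selected over 0-UMI cells was 0.02 (-0.73 to 0.71). Within cluster 4, where *Msmo1* had only 19.4 CPM over the whole cluster, the ratio was 2.21 (0.30 to 4.11) and rests on few UMIs. Within cluster 2 the ratio was -1.46 (-3.84 to 0.27). Within clusters 0, 1 and 3 it was 0.05, -0.27 and -0.88, with intervals that held 0. At 1000 UMIs per cell *Msmo1* was found in 3.89% (1.96 to 6.85) of the selected and 3.61% (2.70 to 4.72) of the 0-UMI cells.

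By marker genes, the selected cells carried the same neuroendocrine genes as the 0-UMI cells. Of 18 neuroendocrine markers, 17 reached a mean of 20 CPM over both groups, 10 of these lay above and 7 below a ratio of 1, and 0 were 2-fold apart (median log2 ratio 0.09), where 1.15% of all genes entered were 2-fold higher and 0.953% 2-fold lower. *Resp18*, a secretory granule protein, had 1905 CPM in the selected and 1792 CPM in the 0-UMI cells, and *Chga*, chromogranin A, 823 and 930 CPM. *Ddc*, the decarboxylase that makes dopamine and serotonin, had the largest ratio of the list (252 and 174 CPM, log2 ratio 0.53, 0.25 to 0.80). *Calca*, which encodes calcitonin and CGRP, was the most abundant marker with 20377 and 15738 CPM (log2 ratio 0.37, 0.34 to 0.40). Its ratio was 0.15 (0.09 to 0.22), 0.42, 0.06 and 0.09 within clusters 0 to 3 and 0.97 within cluster 4. With *Dcpp1* left out of the choice of cells it was 0.15, and with *Cbln4* left out 0.52 (0.48 to 0.56). With cells chosen at 1000 UMIs it was 0.63 (0.58 to 0.68). The neuroendocrine genes summed to 27554 CPM in the selected and 22472 CPM in the 0-UMI cells (log2 ratio 0.29, 0.27 to 0.32), and the 17 genes other than *Calca* to 7177 and 6735 CPM (0.09, 0.04 to 0.14). Within clusters of cells, described below, the log2 ratio of the whole list was 0.13, 0.28, 0.04 and 0.07 in clusters 0 to 3 and 0.69 in the mitotic cluster 4.

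Markers of other lung cells were low in both groups. The 12 macrophage genes summed to 22.7 CPM in the selected and 36.2 CPM in the 0-UMI cells, with *Lyz2* the most abundant at 10.5 and 13.0 CPM and 7 genes, *Csf1r*, *Adgre1* and *Marco* among them, at 0 in the selected cells; both groups had been limited on 6 of the 12. The 8 club cell genes summed to 197 and 248 CPM, of which *Scgb1a1* gave 178 and 216. The 8 alveolar type 2 genes summed to 41.9 and 68.4 CPM. *Abca3* and *Sftpc* had 11 UMIs (19.2 CPM) each in the selected cells and 26.4 and 19.9 CPM in the 0-UMI cells. *Sftpa1*, *Sftpd*, *Slc34a2*, *Napsa* and *Lamp3* were at 0 in the selected cells. The 7 ciliated cell genes summed to 140 and 172 CPM, led by *Foxj1* at 48.9 and 48.5. The 5 alveolar type 1 genes summed to 6.99 and 10.9 CPM, the 3 B cell genes to 12.2 and 10.5, the 5 endothelial genes to 8.74 and 1.81 and the 4 erythroid genes to 1.75 and 1.81. Of 6 T cell genes, the 5 that the matrix holds summed to 6.99 and 22.8 CPM, with *Nkg7* at 0 and 13.4. The 6 fibroblast genes summed to 3.50 and 23.2 CPM. Of this, *Dcn*, also a leading gene of cluster 3 described below, gave 3.50 and 21.7. Neutrophil genes were at 0 in the selected cells and basal cell genes at 0 in both groups. The median Scrublet doublet score was 0.0904 in the selected and 0.0849 in the 0-UMI cells.

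The selected cells did not form a cluster of their own. When all 3193 TKO1 cells were clustered without the 4 genes, the selected cells lay in 9 of 10 clusters, and the share they made up of the cells within the limits ran from 1.72% to 16.8% in the 8 clusters that held at least 100 such cells. Cluster 2 held 89 of them (16.8% of its cells, 13.7 to 20.2) and cluster 0 held 82 (14.3%, 11.5 to 17.4). The mitotic cluster, cluster 4, which is led by *Ube2c* and *Plk1*, held 33 (10.2%). Cluster 6, led by *Nefm*, *Neurog3* and *Nefl*, held 4 of 232 (1.72%, 0.472 to 4.36), below every other cluster of this size. These shares moved with depth. With cells chosen at 1000 UMIs, cluster 0 had the highest share (40 of 307 cells, 9.47 to 17.3%), cluster 2 had 8.04% (5.78 to 10.8), the mitotic cluster 4.92% (2.65 to 8.27), cluster 7 3.73% and cluster 6 the lowest with 2 of 167 cells (0.145 to 4.26%). The club-like cluster, with 4 club markers among its 10 leading genes, had 0 selected among 12 cells within the limits, and the macrophage-like cluster 1 among 21. With the 4 genes kept in the clustering the shares ran from 1.72% to 15.2%.

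**Figure D2:**
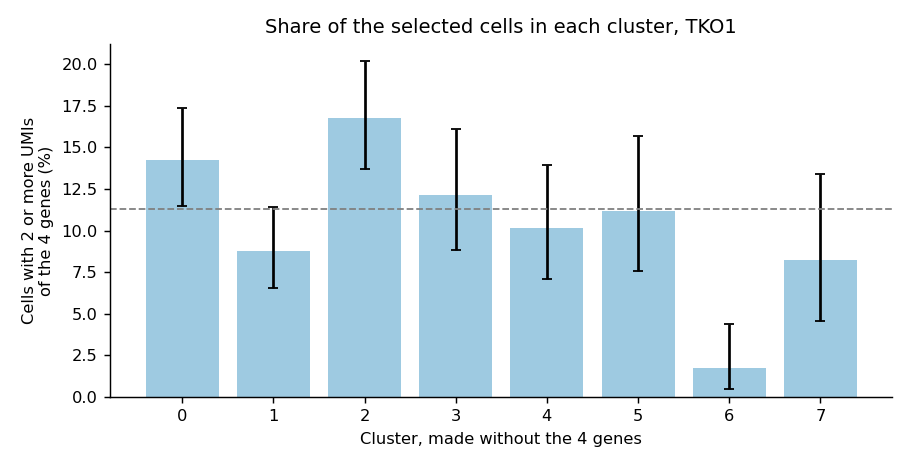
Share of cells within the limits that carried 2 or more UMIs of the 4 genes (y axis, percent) in each TKO1 cluster with at least 100 such cells (x axis); bars are shares, error bars exact 95% intervals, the dashed line the share over all cells, 11.3%. Cluster 6 is lowest at 1.72% and cluster 2 highest at 16.8%, a rank that cluster 2 (8.04%) did not hold at 1000 UMIs per cell.

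Over all genes the selected and 0-UMI cells were close. Of 6503 genes with a mean of at least 20 CPM in the 2 groups, the rule genes left out, 75 (1.15%) were at least 2-fold higher and 62 (0.953%) at least 2-fold lower in the selected cells, and the median log2 ratio was 0.04. Among the 1953 genes with at least 100 CPM, where counting error is smaller, 0 (0%) were 2-fold higher and 5 (0.256%) 2-fold lower. These shares are the background for every list. From the 10th to the 90th percentile the log2 ratios of these 1953 genes ran from -0.28 to 0.29.

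Apart from the genes used for the choice, none with 100 CPM or more was 2-fold higher in the selected cells. The largest ratio was that of *Zfhx3*, a homeobox transcription factor, with 119 CPM in the selected and 63.0 CPM in the 0-UMI cells (log2 ratio 0.92, 0.49 to 1.33). It was followed by *Pabpn1*, a nuclear poly(A)-binding protein, with 108 and 57.6 CPM (0.91, 0.47 to 1.34), and by *Khdrbs3*, an RNA-binding splicing regulator, with 105 and 56.1 CPM (0.90, 0.45 to 1.34). *Ttc19*, an assembly factor of respiratory complex III, had 101 and 56.1 CPM (0.85, 0.39 to 1.30). Of the UMIs of *Khdrbs3* in the selected cells 51.7% came from 10 cells, and 32 of the 64 of *Ttc33* (0.84) did so too, with 13 in 1 cell.

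The other 10 of the 15 leading genes had log2 ratios between 0.71 and 0.80. They include *Mef2a*, a transcription factor with 126 and 73.1 CPM, *Ensa*, an inhibitor of the phosphatase PP2A, with 131 and 78.9 CPM, *Yeats4*, a reader of acetylated histones, with 142 and 86.2 CPM, and *Pde1a*, a calmodulin-dependent phosphodiesterase, with 150 and 90.9 CPM. *Pde1a* had 0 UMIs in TKO2. Levels in the cells with 1 UMI of the 4 genes lay between those of the other groups for most of these, as for *Zfhx3* (81.9 CPM) and *Yeats4* (106 CPM), but not for *Pabpn1* (56.5 CPM) or *Khdrbs3* (48.7 CPM). At 1000 UMIs per cell, the intervals of the shares of selected and 0-UMI cells with a UMI were apart for 3 of the 15 genes. As the 15 genes had been picked by their ratios between these same cells, this count is a description only. The share of all genes with intervals apart at this depth is not given here. *Ttc19* was found in 10.2% (6.97 to 14.4) of the selected and 4.67% (3.63 to 5.91) of the 0-UMI cells. *Mef2a* was found in 11.0% (7.57 to 15.2) and 6.02% (4.84 to 7.39), and *Lurap1l* in 13.4% and 6.37%, with a lower bound of 9.68% in the selected and an upper bound of 7.78% in the 0-UMI cells. The intervals of the other 12 overlapped, as for *Zfhx3* with 7.07% (4.37 to 10.7) and 6.16% (4.96 to 7.55). With cells chosen at 1000 UMIs, the interval of the log2 ratio held 0 for 9 of the 15, and within cluster 0 it did so for all 15.

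**Figure D3:**
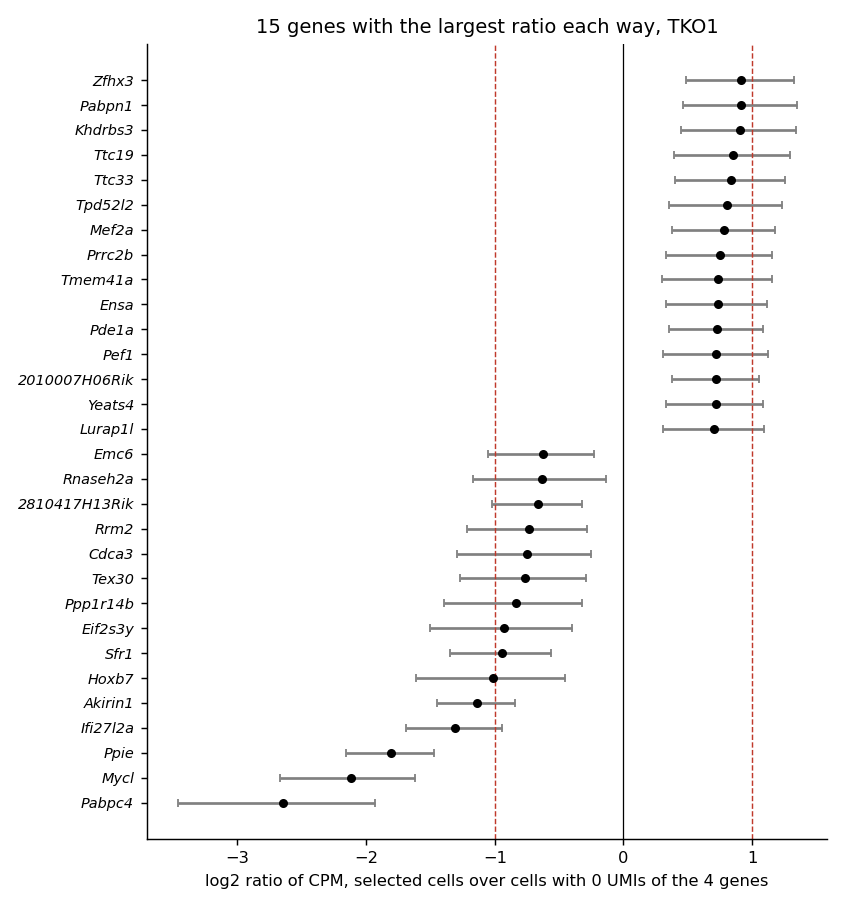
Log2 ratio of CPM, selected over 0-UMI cells (x axis), for the 15 genes farthest from 0 in each direction that had 100 CPM or more in the higher group (y axis); points are ratios, bars exact 95% intervals, dashed lines 2-fold. The higher genes end at 0.92 (*Zfhx3*), inside the 2-fold line, while *Pabpc4*, *Mycl* and *Ppie* lie at -2.64, -2.12 and -1.81.

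The genes that were lower in the selected cells had larger ratios. *Pabpc4*, a cytoplasmic poly(A)-binding protein, had 16 UMIs (28.0 CPM) in the selected and 483 UMIs (175 CPM) in the 0-UMI cells, a log2 ratio of -2.64 (-3.46 to -1.93). *Mycl*, the Myc family transcription factor often amplified in SCLC, had 57.7 and 251 CPM (-2.12, -2.67 to -1.62). *Ppie*, a cyclophilin of the spliceosome, had 136 and 477 CPM (-1.81, -2.15 to -1.48), and *Akirin1*, a nuclear regulator of transcription, 177 and 389 CPM (-1.14, -1.45 to -0.85). These 4 genes start within 754.7 kb of each other on chromosome 4. By the number of UMIs of the rule genes, *Mycl* stepped down from 251 CPM with 0 through 140 CPM with 1 to 66.6 CPM with 2. It had 44.4 CPM with 3 and 43.8 CPM with 4 or more. *Pabpc4* fell to 17.7 CPM (2 UMIs) with 3 but had 52.6 CPM (6 UMIs) with 4 or more. *Ppie* and *Akirin1* fell at each step, to 61.3 and 149 CPM with 4 or more.

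Other genes below the 0-UMI cells came from different chromosomes. *Ifi27l2a*, an interferon-induced gene, had 117 and 290 CPM (-1.31, -1.69 to -0.95). *Hoxb7*, a homeobox gene, had 50.7 and 102 CPM (-1.01, -1.62 to -0.46), and *Sfr1*, a DNA recombination factor, 108 and 209 CPM (-0.94, -1.35 to -0.56). *Eif2s3y*, a translation initiation subunit encoded on the Y chromosome, had 55.9 and 106 CPM (-0.93). Of 3 other genes of the Y chromosome, looked up after that value was seen, *Ddx3y* had -0.45 (-1.17 to 0.20), *Kdm5d* -1.48 (2 and 27 UMIs) and *Uty* 0.64 (10 and 31 UMIs). *Rrm2*, a ribonucleotide reductase subunit used in DNA synthesis, had 78.6 and 131 CPM (-0.74, -1.22 to -0.29). The remaining genes of the 15 had log2 ratios from -0.84 (*Ppp1r14b*) to -0.63 (*Emc6*).

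The genes around *Mycl* were lower over a limited stretch. Within 2 Mb of the start of *Mycl* (chromosome 4, 122995652 to 123002485), 19 genes with at least 20 CPM start. Of these, 6 were at least 2-fold lower in the selected cells and 0 were higher, beside 0.953% and 1.15% of all genes entered. The window was drawn after the data had been seen, and 4 of the 6 are the genes above. The count is therefore a description and not a test. With these 4 set aside, the log2 ratios in the window had a median of 0.15, against -0.03 with them. The others of the 6 were *Trit1* at 20.9 kb (29.7 and 65.9 CPM, -1.15) and *Ndufs5* at 722.6 kb (12.2 and 32.9 CPM, -1.43). *Macf1*, at 688.7 kb, had -0.74 (-1.36 to -0.16). Beyond the stretch, *Mycbp* at 909.2 kb had -0.03 and *Rragc* at 921.8 kb 0.24, and on the other side *Ppt1*, at -159.4 kb, had 0.66 (0.07 to 1.21).

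**Figure D4:**
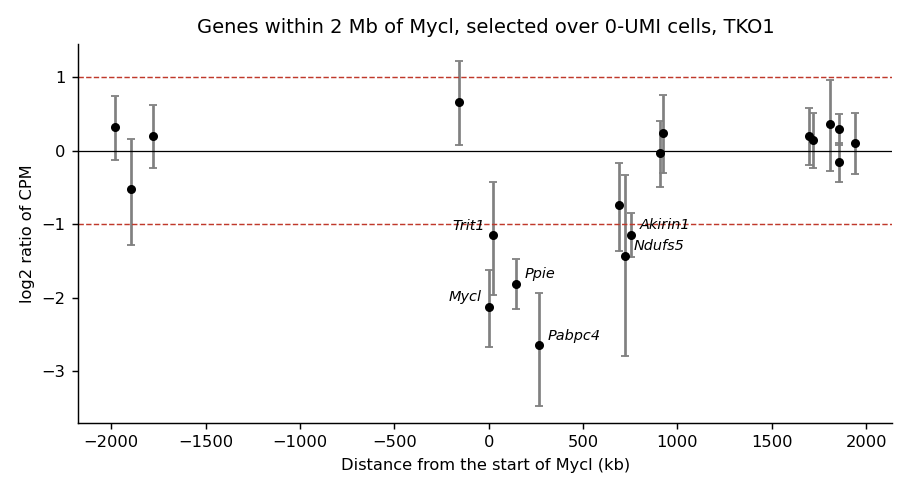
Log2 ratio of CPM, selected over 0-UMI cells (y axis), for the 19 genes within 2 Mb of *Mycl*, by the distance of their start from that of *Mycl* (x axis, kb); points are ratios, bars exact 95% intervals, dashed lines 2-fold. The 6 named genes at -1.14 or lower lie between 0 and 754.7 kb.

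The lower level of these genes went with few cells that had much of them. At least 3 *Mycl* UMIs were found in 2 of 340 selected cells (0.588%, 0.0713 to 2.11) and in 74 of 2048 0-UMI cells (3.61%, 2.85 to 4.52), and the highest cell had 4 and 21 UMIs. *Pabpc4* had UMIs in 168 of the 0-UMI cells, with up to 23 per cell, and in 13 of the selected cells, with up to 3. *Mycl* was at 1342 CPM in cluster 6 and at 408 CPM in the mitotic cluster 4, and between 25.2 and 83.8 CPM in clusters 0, 1, 2, 3, 5 and 7. Within cluster 4 the log2 ratio of *Mycl* was -2.31 (-3.39 to -1.41) and that of *Ppie* -3.69 (-4.91 to -2.70). Within clusters 0 to 3 the ratio of *Mycl* lay at -0.13, 0.01, -1.11 and 0.06, with few UMIs and intervals from -3.17 to 2.13 in cluster 1 and -3.51 to 0.67 in cluster 2. Without cluster 6 it was -1.56 (-2.21 to -0.98), with cells of 1 or more UMIs of the 4 genes -1.22, and among cells with 0 *Mycl* UMIs *Pabpc4* was at -0.71 (-1.72 to 0.16), *Ppie* at -0.57 (-0.98 to -0.18) and *Akirin1* at -0.32 (-0.67 to 0.01).

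Interferon-induced genes were the list with the lowest median apart from the *Mycl* neighbours and a list of *Anxa1*-associated genes, both of which were drawn up from earlier results on these libraries. Of 11 interferon genes 8 were entered, 4 were at least 2-fold lower and 0 higher, and the median log2 ratio was -0.95, beside 0.04 over all genes entered. *Rsad2*, the antiviral enzyme viperin, had 5 UMIs (8.74 CPM) in the selected and 256 UMIs (92.7 CPM) in the 0-UMI cells (-3.41, -5.04 to -2.17). *Isg15*, a ubiquitin-like modifier, had 8.74 and 46.0 CPM (-2.40) and *Ifit1*, which binds viral RNA, 15.7 and 61.9 CPM (-1.98). *Usp18*, which removes Isg15 from proteins, had -0.09 (-0.49 to 0.30).

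The interferon UMIs were concentrated in few cells. *Rsad2* was found in 104 of the 0-UMI cells with up to 17 UMIs in one, and in 4 of the selected cells. The 10 highest cells held 31.6% of its UMIs in the 0-UMI group and 40.9% of those of *Isg15*. *Ifi27l2a* was at 1156 CPM in cluster 3 and between 52.4 and 282 CPM in the other clusters with at least 100 cells within the limits. Within cluster 3 its log2 ratio was -1.75 (-2.40 to -1.17), within cluster 4 -1.29 (-2.27 to -0.43), and within cluster 2 0.86 (-0.18 to 1.86). The interferon list as a sum was at -0.86 (-1.04 to -0.68) over all cells, at -0.13 within cluster 0 and at -0.06 within cluster 2.

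Of 9 genes of MHC class I antigen presentation 7 were entered, 2 of these lay above a ratio of 1 and 0 were 2-fold apart, with sums of 3224 and 3735 CPM (-0.21, -0.28 to -0.14). *B2m*, the invariant chain, had 444 and 653 CPM (-0.56, -0.75 to -0.37) and *H2-D1*, a class I heavy chain, 2055 and 2250 CPM (-0.13, -0.22 to -0.04).

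Immediate early genes, which are switched on within minutes of stimulation and also by tissue dissociation, were higher by small steps. Of 14 genes 12 were entered, 11 of these had a ratio above 1 and 0 were 2-fold apart, with a median log2 ratio of 0.30. *Fosb* had 507 and 335 CPM (0.60, 0.40 to 0.79), *Egr1* 914 and 682 CPM (0.42, 0.28 to 0.56) and *Fos* 3841 and 3423 CPM (0.17, 0.10 to 0.23). The sum of the list was at 0.28 (0.25 to 0.31) over all cells. Within clusters it ran from -0.09 (cluster 0) to 0.58 (cluster 4), and with *Dcpp1* left out of the choice of cells it was 0.06 (0.03 to 0.10).

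S phase genes were mostly lower in the selected cells, and mitosis genes had no direction that held across depths. Of 10 S phase genes 0 were 2-fold apart, 8 lay below a ratio of 1 and the median log2 ratio was -0.34. Their sum was 982 CPM in the selected and 1175 CPM in the 0-UMI cells (-0.26, -0.39 to -0.13). *Tyms*, thymidylate synthase, had 112 and 153 CPM (-0.45, -0.85 to -0.07) and *Pcna*, the DNA polymerase clamp, 315 and 350 CPM (-0.15, -0.39 to 0.08). Over all cells, 7 of 10 mitosis genes lay above a ratio of 1, with a median of 0.17 and a sum of 1440 and 1295 CPM (0.15, 0.04 to 0.26). With *Dcpp1* left out of the choice of cells the mitosis sum was 0.65. It was -0.53 (-0.78 to -0.28) when cells were chosen at 1000 UMIs. With the 0-UMI cells weighted to the depth of the selected cells it was -0.24. The sum was -0.29 with at least 3 UMIs of the 4 genes and -0.92 (-1.15 to -0.70) without *Cbln4* in the choice. The S phase sum was -0.06 in the latter case and between -0.05 and 0.09 within clusters 0, 1 and 2.

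Apart from *Dcpp2* (7 and 3 UMIs, 12.2 and 1.09 CPM, log2 ratio 3.49, 1.36 to 6.08) and *Dcpp3* (2.92, 1.43 to 4.53), whose reads are partly shared with *Dcpp1*, few genes of the pathways of the rule genes and *Msmo1* were 2-fold apart. Of 20 cholesterol synthesis genes 13 were entered and 0 were 2-fold apart (median log2 ratio 0.19), with *Nsdhl*, a sterol dehydrogenase, at 31.5 and 15.9 CPM (0.98, 0.10 to 1.80). Of 8 genes of sterol regulation and uptake 4 were entered and 0 were 2-fold apart. Of 27 peroxisome genes 16 were entered and 0 were 2-fold apart (median -0.09), among them *Scp2*, a sterol carrier, with 325 and 307 CPM. Of 21 genes of lysine, glycine and one-carbon metabolism, the pathways of the *Pipox* substrates, 7 were entered and 1 was 2-fold higher, *Gcsh*, a subunit of the glycine cleavage system, with 18 UMIs in the selected and 41 in the 0-UMI cells (31.5 and 14.8 CPM, 1.08, 0.20 to 1.92).

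Of 21 other genes of mucin-type O-glycosylation 9 were entered and 0 were 2-fold apart (median 0.23). *C1galt1*, which extends the sugar that Galnt enzymes attach, had 69.9 and 55.4 CPM, and its chaperone *C1galt1c1* 121 and 103 CPM. Of 17 cerebellin and C1q-like genes and their partners only 3 were entered and 0 were 2-fold apart. *Nrxn2*, one of the receptors to which cerebellins bind, had 55.9 and 52.9 CPM (0.08, -0.52 to 0.64). *Dcc* had 0 UMIs in the selected cells and 4 in the 0-UMI cells, *Cbln2* and *Cbln3* had 0 in both, and *Cbln1* had 2 and 14. *Neo1*, a relative of DCC, had 28.0 and 15.2 CPM (0.88, -0.05 to 1.74). Of 11 fatty acid synthesis genes 5 were entered and 2 were 2-fold lower, *Me1* (15.7 and 37.3 CPM, -1.25) and *Scd2* (26.2 and 56.5 CPM, -1.11), which supply NADPH and desaturate fatty acids.

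Other programs were also close to level. The 12 genes of the integrated stress response summed to 2247 and 2226 CPM (0.01, -0.07 to 0.10), the 12 of the unfolded protein response to 2174 and 2325 CPM (-0.10, -0.19 to -0.01), the 15 hypoxia genes to 9437 and 10427 CPM (-0.14, -0.19 to -0.10) and the 3 metallothioneins to 4381 and 4404 CPM (-0.01, -0.07 to 0.05). The 11 keratins and claudins of epithelia summed to 9762 and 9866 CPM and the 15 Notch genes to 1029 and 997 CPM, with *Hes6* leading the latter. In each of these lists 0 of the genes entered were 2-fold apart. Of 26 transcription factors listed here for SCLC subtypes and their regulation 12 were entered. *Mycl* alone of these was 2-fold apart, and *Sox11*, a neural progenitor factor, had 161 and 109 CPM (0.56, 0.20 to 0.90). Of 17 neuropeptide genes 4 were entered and 1 was 2-fold lower, *Iapp*, islet amyloid polypeptide, with 6 UMIs in the selected and 164 in the 0-UMI cells (-2.50, -3.97 to -1.35); *Iapp* is among the leading genes of cluster 6. Of 8 secretory and barrier genes listed from earlier results on these libraries 0 were 2-fold apart.

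Since the selected cells were chiefly *Cbln4* cells and *Dcpp1* cells, these were set against each other, in a comparison added after the data had been seen. There were 141 cells with at least 2 *Cbln4* and 0 *Dcpp1* UMIs (235779 UMIs, median 1367 per cell) and 79 with at least 2 *Dcpp1* and 0 *Cbln4* UMIs (119127 UMIs, median 1256). Of 1984 genes with a mean of at least 100 CPM, 54 (2.72%) were at least 2-fold higher and 38 (1.92%) at least 2-fold lower in the *Cbln4* cells, and the median log2 ratio was 0.02. With the smaller groups these shares are above the 0% and 0.256% of the main comparison, and counting error alone is larger here.

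Mitotic genes led the *Cbln4* side. *Cenpf*, a kinetochore protein, had 65 UMIs (276 CPM) in the *Cbln4* cells and 2 UMIs (16.8 CPM) in the *Dcpp1* cells, a log2 ratio of 4.04 (2.13 to 7.11), with 159 CPM in the 0-UMI cells. *Birc5*, survivin, had 48 and 2 UMIs (204 and 16.8 CPM) and *Ccnb1*, cyclin B1, 153 and 16.8 CPM (3.18, 1.23 to 6.28). All 7 mitosis genes with a mean of 100 CPM were higher in the *Cbln4* cells, with a median log2 ratio of 2.09, and the list summed to 1900 CPM in the *Cbln4* cells, 437 CPM in the *Dcpp1* cells and 1295 CPM in the 0-UMI cells. Of the *Cbln4* cells 18 of 141 (12.8%, 7.74 to 19.4) lay in the mitotic cluster 4, of the *Dcpp1* cells 3 of 79 (0.790 to 10.7%) and of the 0-UMI cells 11.4% (10.1 to 12.9). The 65 selected cells with UMIs of both genes had 140 CPM of *Cenpf* and 2 cells in cluster 4. S phase genes did not follow, with sums of 937 and 915 CPM.

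The *Dcpp1* side held an annexin and other genes. *Anxa1*, annexin A1, had 3 UMIs (12.7 CPM) in the *Cbln4* cells, 22 UMIs (185 CPM) in the *Dcpp1* cells and 104 CPM in the 0-UMI cells (log2 ratio of *Cbln4* over *Dcpp1* cells -3.86, -6.24 to -2.12). *Slc9a3r1*, a scaffold protein of the apical membrane, had 1 UMI and 14 UMIs (-4.79, -10.19 to -2.08) and *Kdm5b*, a histone demethylase, 33.9 and 159 CPM (-2.23, -3.63 to -0.97). The other genes among the 10 leading on this side had 12 to 17 UMIs in the *Dcpp1* cells. Of the *Dcpp1* cells 22 of 79 (27.8%, 18.3 to 39.1) lay in cluster 3, where *Anxa1* was at 556 CPM, and of the *Cbln4* cells 10 of 141 (7.09%, 3.45 to 12.7).

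Single abundant genes and the immediate early list differed as well. Of 16 neuroendocrine genes with a mean of 100 CPM, 9 were higher in the *Cbln4* cells (median log2 ratio 0.02), whereas the list's sum, most of it *Calca*, was lower there (-0.38, -0.44 to -0.33). *Calca* had 19230 CPM (18674 to 19798) in the *Cbln4* cells, 27198 CPM (26269 to 28151) in the *Dcpp1* cells, 19333 CPM in the cells with both and 15738 CPM in the 0-UMI cells. *Cxcl13*, a chemokine that attracts B cells, had 1455 CPM in the *Cbln4* and 3022 CPM in the *Dcpp1* cells, on either side of the 1758 CPM of the 0-UMI cells. *Nnat*, neuronatin, a gene chosen for display after its values were seen, was above the 1287 CPM of the 0-UMI cells in the *Cbln4* cells (1667 CPM), the *Dcpp1* cells (2082 CPM) and the cells with both (2498 CPM). All 11 immediate early genes with a mean of 100 CPM were lower in the *Cbln4* cells (median log2 ratio -0.45), *Fosb* with 458 and 755 CPM and *Dusp1* with 1154 and 1654 CPM. Metallothioneins summed to 5115 CPM in the *Cbln4* cells, 3249 CPM in the *Dcpp1* cells (0.65, 0.49 to 0.82) and 4404 CPM in the 0-UMI cells, with 2 of 3 genes higher in the *Cbln4* cells. Hypoxia genes summed to 10959, 7530 and 10427 CPM (0.54, 0.43 to 0.65), and all 8 with a mean of 100 CPM were higher in the *Cbln4* cells. The integrated stress response genes summed to 2413, 1922 and 2226 CPM (0.33, 0.10 to 0.56).

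Markers of ciliated cells also differed between the *Cbln4* and the *Dcpp1* cells. The 7 genes summed to 45 UMIs (191 CPM) in the *Cbln4* cells, 7 UMIs (58.8 CPM) in the *Dcpp1* cells, 114 CPM in the cells with both and 172 CPM in the 0-UMI cells, a log2 ratio of *Cbln4* over *Dcpp1* cells of 1.70 (0.54 to 3.09). *Foxj1*, the regulator of motile cilia, was the most abundant in the *Cbln4* cells with 14 UMIs, against 1 in the *Dcpp1* cells, and *Cfap126*, a cilium protein, had 12 and 2. In all, 4 of the 7 genes were higher in the *Cbln4* and 1 in the *Dcpp1* cells, and *Ccdc153* and *Sntn* were at 0 UMIs in both. Cluster 1, with *Fam183b* and *Cfap126* as its leading genes, held 24 of 141 *Cbln4* cells (11.2 to 24.3%), 6 of 79 *Dcpp1* cells (2.84 to 15.8%, which overlaps) and 19.9% of the 0-UMI cells. The part of these cells in the other differences between the *Cbln4* and *Dcpp1* cells was not tested. Of 39 lists, the rule genes left out, 5 had a sum that was higher in the *Cbln4* cells with an interval without 0. For 7 lists such a sum was higher in the *Dcpp1* cells, and several of all these lists share genes. Among the 7, the neuroendocrine, the neuropeptide and the secretory and barrier lists all have *Calca* as their most abundant gene. Their sums are therefore not separate differences. The 7 include the *Dcpp* paralogs, whose reads are partly shared with *Dcpp1*. Since *Dcpp1* chose these cells, the direction of that list follows from the choice and is not a finding.

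**Figure D5:**
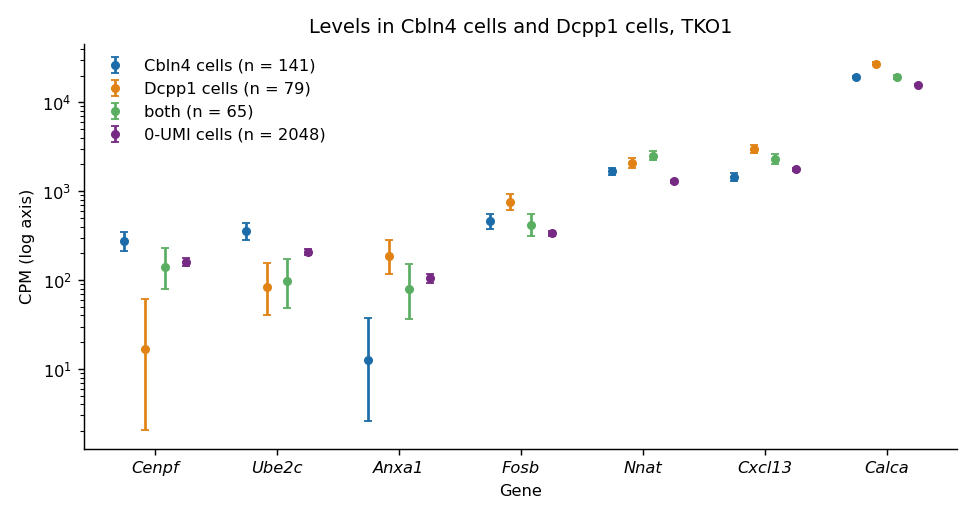
CPM of 7 genes (y axis, log scale) in TKO1 cells with at least 2 *Cbln4* and 0 *Dcpp1* UMIs, at least 2 *Dcpp1* and 0 *Cbln4* UMIs, selected cells with both, and 0-UMI cells (colors); points are levels, bars exact 95% Poisson intervals. *Cenpf* is at 276 CPM in *Cbln4* cells and 16.8 in *Dcpp1* cells, and *Anxa1* at 12.7 and 185.

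*Mycl* and the interferon list were below the 0-UMI cells on both sides. *Mycl* had 33.9 CPM (14.6 to 66.9) in the *Cbln4* cells and 50.4 CPM (18.5 to 110) in the *Dcpp1* cells, against 251 CPM in the 0-UMI cells, and the list of *Mycl*, *Trit1*, *Macf1*, *Akirin1* and *Pabpc4* summed to 314, 319 and 962 CPM. Interferon genes summed to 543, 520 and 913 CPM.

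By chromosome, the ratios of selected over 0-UMI cells were even except on chromosome 19. The median log2 ratio of its 168 genes was -0.15, and the medians of the other autosomes and of chromosome X ran from 0.00 to 0.10. On chromosome 19, 112 genes had a ratio below 1 and 56 above, and its genes summed to 20815 CPM in the selected and 22950 CPM in the 0-UMI cells (-0.14, -0.17 to -0.11). Without cluster 6 the sum was at -0.09 and the median at -0.08, and among cells with 0 *Mycl* UMIs they were at -0.09 and -0.06. *Sfr1* and *Ppp1r14b* among the lower genes lie on this chromosome. Within clusters 0, 1 and 2 the sum of chromosome 19 was level, with log2 ratios of 0.01, 0.02 and 0.01. The medians over its genes were 0.22, 0.30 and 0.08 there, where all genes entered had 0.06, 0.10 and 0.02. In clusters 0 and 1 the medians of chromosome 19 thus lay above the highest of the other chromosomes, 0.15 and 0.18. Within clusters 3 and 4 the sum of chromosome 19 was -0.19 (-0.27 to -0.11) and -0.29 (-0.37 to -0.22). It was -0.22 (-0.26 to -0.17) in the *Cbln4* cells and -0.06 (-0.11 to 0.00) in the *Dcpp1* cells, each against the same 0-UMI cells. Whether copy number plays a part was not tested.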

How the data were processed

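The authors captured live sorted cells on the 10x Chromium platform and deposited raw UMI counts per gene and barcode, not normalized, with 1 library per tumor. The labels name Cell Ranger, Seurat and mm10 without version. Genes were placed by identifier with GENCODE M21 (GRCm38), which held 27645 of 27998. The selected cells and the gene lists were chosen with earlier results of these data known. UMIs were summed over the cells of a group and scaled to CPM with pandas 2.3.3, numpy 2.4.6 and scipy 1.17.1 under Python 3.11.15 (plots by matplotlib 3.10.9). Since both groups come from 1 library, no p-value was computed. A group with 0 UMIs was set to a limit of 3 UMIs. Genes entered with a mean of 20 CPM over both groups, and 2-fold was the threshold. Named were the rule genes, *Msmo1*, the deleted genes, the 15 genes farthest from 0 in each direction (100 CPM or more in the higher group, interval without 0), and list members, with preference for those 2-fold apart or most abundant. The comparison of *Cbln4* with *Dcpp1* cells (10 leading genes each way), the genes around *Mycl*, the count of cells behind a level and the sums over chromosome 19 were added after the data had been seen, as were the alternatives without cluster 6, without the highest *Pipox* cell, with only cells at 0 *Mycl* UMIs, with cluster shares at 1000 UMIs and with the neuroendocrine list less *Calca*. Other alternatives changed the UMI and gene minimums, depth, scaling (TMM factors of edgeR 4.0.16), fold, clustering and the genes of the rule. Shares of cells were taken after thinning to 1000 UMIs with seed 1. Cells were clustered in Seurat 5.3.0 under R 4.3.3 without the 4 genes (genes in at least 10 cells, 1000 variable genes, 10 components, resolution 0.8), and a cluster was given a cell type name only from fixed markers of other cell types. Cluster 4 is called mitotic after its leading genes. Scrublet (scanpy 1.11.5) called 0 doublets, so the scores above the 95th percentile were left out as an alternative. Steps were tested on simulated data. Some members of the lists are counted in the summaries but not reported here by name.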

Additional observations from a re-analysis of the deposited data

How the results depend on the processing

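No paired analysis was possible because the compared cells come from 1 library and the replicate numbers of the tumors pair nothing. For the same reason no library could be left out, and depth limits most ratios below 100 CPM. The cause of each shift below was not tested. The share of selected cells was 31.8% at 1 or more UMIs of the 4 genes, 4.43% at 3 or more, 8.93% with over 200 genes per cell, 17.3% with over 1000 and 7.87% at 1000 UMIs. The genes 2-fold higher and lower, 75 and 62, were 14 and 23 at 1 or more UMIs, 290 and 213 at 3 or more, 244 and 195 with over 1000 genes, 352 and 333 at 1000 UMIs, 514 and 718 with a minimum of 10 UMIs in place of CPM, 0 and 5 at 100 CPM, 264 and 219 without *Cbln4* in the rule and 120 and 110 without *Dcpp1*. At 1.5-fold they were 487 and 287 and at 3-fold 6 and 16. The highest share in a cluster was 12.8% at resolution 0.4, 25.8% at 1.2 and, added after seeing the data, 13.0% at 1000 UMIs per cell. Beside 0 UMIs of the other genes, *Cbln4* was in 22.3% of cells at 2000 UMIs and 19.3% unthinned, *Dcpp1* in 11.4% and 9.18%, and *Pipox* in 0 at 2000 UMIs.

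Summed log2 ratios of lists that shifted are given next. Neuroendocrine genes had 0.22 at 1 or more UMIs, 0.36 at 3 or more, 0.34 with over 1000 genes, 0.50 at 1000 UMIs, 0.39 with depth weighting, 0.24 with TMM, 0.33 as a mean over cells, 0.27 without mitochondrial and ribosomal genes, 0.39, 0.12 and 0.35 without *Cbln4*, *Dcpp1* or *Galnt9* in the rule, 0.23 without cluster 6, 0.21 at 0 *Mycl* UMIs, 0.092 without *Calca*, and 0.13, 0.037, 0.068 and 0.69 within clusters 0, 2, 3 and 4. Immediate early genes had 0.22 at 1 or more UMIs, 0.37 at 3 or more, 0.48 with over 1000 genes, 0.23 at 1000 UMIs, 0.37 with depth weighting, 0.22 with TMM, 0.23 as a mean over cells, 0.39, 0.063 and 0.33 without *Cbln4*, *Dcpp1* or *Galnt9* in the rule, 0.22 without cluster 6, 0.19 at 0 *Mycl* UMIs, and -0.090, -0.032, 0.21, 0.24 and 0.58 within clusters 0 to 4. Mitosis genes had -0.29 at 3 or more UMIs, -0.071 with over 1000 genes, -0.53 at 1000 UMIs, -0.24 with depth weighting, 0.00089 as a mean over cells, -0.92, 0.038 and 0.65 without *Cbln4*, *Pipox* or *Dcpp1*, 0.35 at 0 *Mycl* UMIs, and 0.38 and -0.39 within clusters 2 and 3. S phase genes had -0.51 with over 1000 genes, -0.060 without *Cbln4*, and 0.014, 0.087, -0.046, -0.53 and -0.59 within clusters 0 to 4. Interferon genes had -0.68 at 1000 UMIs and -0.13, -0.43 and -0.059 within clusters 0 to 2, and cholesterol genes -0.16 and 0.21 within clusters 0 and 4.

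Alternatives for single genes were run for the 30 leading genes, *Calca*, *Nnat* and *Msmo1*. Among those at least 2-fold apart over all cells, the sign turned within clusters: *Mycl* to 0.0083 and 0.064 in clusters 1 and 3, *Pabpc4* to 0.49, 0.48 and 0.70 in clusters 1 to 3, *Ppie* to 0.36 and 0.10 in clusters 1 and 2, *Akirin1* to 0.13 and 1.00 in clusters 1 and 3, *Ifi27l2a* to 0.050 and 0.86 in clusters 1 and 2, and *Hoxb7* to 0.10 in cluster 4. Outside clusters, and beside the values for cells with 0 *Mycl* UMIs in the report, these moved by over 1.5 times: *Akirin1* to -0.61 without cluster 6, *Mycl* to -1.22, *Pabpc4* to -1.44 and *Hoxb7* to -0.53 at 1 or more UMIs, *Hoxb7* to -1.53 at 3 or more, *Ppie* to -2.72 with over 1000 genes, *Ppie* to -1.08 and *Pabpc4* to -4.76 at 1000 UMIs, and *Ppie* to -1.20 and *Ifi27l2a* to -0.87 without *Cbln4*. Of the 15 leading higher genes, 9 moved closer to 0 by over 1.5 times at 1 or more UMIs, with ratios from 0.33 (*Khdrbs3*) to 0.64. At 3 or more UMIs 5 moved by over 1.5 times and the interval of 5 held 0, among them *Pabpn1* with 0.38 (-0.43 to 1.11). At 1000 UMIs 9 moved and the interval of 9 held 0, with ratios from -0.13 (*Pef1*) to 1.34 (*Ttc33*) and *Zfhx3* at 0.29, *Tpd52l2* at 0.06 and *Ensa* at 0.33. Without *Cbln4* in the rule 7 moved, from -0.05 (*Ttc33*) to 1.43 (*Zfhx3*), with *Pde1a* at 0.29 and *Prrc2b* at 0.15, and without *Dcpp1* 4 moved. With over 1000 genes per cell *Ttc33* moved to 0.42, and without *Galnt9* *Zfhx3* moved to 0.60. Within clusters the interval held 0 for 15, 13, 6, 12 and 10 of the 15 in clusters 0 to 4. Of the 15 leading lower genes, 9 moved at 1 or more UMIs, 6 at 3 or more and 6 with over 1000 genes. At 1000 UMIs 6 moved and without *Cbln4* 5, and outside clusters the sign of none of the 15 turned. Within clusters 0 to 4 an interval with both limits held 0 for 13, 11, 14, 12 and 4 of these 15. The counts within clusters, here and for the higher genes, leave out intervals with only 1 limit, from a group with 0 UMIs. Some of those also reach past 0, as for *Cdca3* in cluster 0 (no lower limit, up to 1.75), so the counts are minimums. The sign turned there for 5, 10, 5, 6 and 1 of them, *Rrm2* among them in clusters 0, 1 and 3. Some of these turned values are limits set for a group with 0 UMIs.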
